A study of Mus musculus with 12 samples.

Results

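The genes described here were 9 members of the peroxisomal fatty acid oxidation machinery, Abcd3, Ehhadh, Hsd17b4, Acaa1a, Acaa1b, Scp2, Crot, Cat and Pex11a, measured by RNA sequencing of whole kidney. They were found in the deposited table of 27179 genes by NCBI Gene number, and all 9 passed the filter on low values that left 14972 genes to test. Kidneys came from 12 mice, 3 for each combination of genotype (wild-type or FAN1KO) and treatment (saline or cisplatin), and the groups are named by both, as in FAN1KO cisplatin. FAN1KO mice carried γGT1-Cre;Fan1-/-, a deletion driven in the proximal tubule, so whole-kidney RNA also held cells in which Cre is not active. All 4 groups shared a strain background given as mixed and an age given as 8 to 12 weeks. The authors' methods state that age for the mice when injected, and describe a backcross of the lines to a named strain. Cisplatin, a DNA crosslinking drug, was given intraperitoneally at 2 mg/kg once a week for 5 weeks, and the other groups received saline. FAN1 is a nuclease that acts in the repair of DNA interstrand crosslinks.

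Peroxisomes shorten very long chain, branched and dicarboxylic fatty acids, which then pass to mitochondria for complete oxidation. Acyl-CoA enters through ABCD transporters, the opening oxidation makes hydrogen peroxide, a bifunctional protein hydrates and dehydrogenates the chain, and a thiolase splits off acetyl-CoA. Catalase removes the peroxide, and carnitine acyltransferases carry the shortened chains out. The proximal tubule is rich in peroxisomes and draws most of its energy from fatty acids, and several of these genes are known targets of the nuclear receptor PPARα, which binds a direct repeat of AGGTCA-like half-sites together with RXR.

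In FAN1KO kidneys after cisplatin, 4 of the 9 genes were lower than in wild-type kidneys after cisplatin: Cat, Scp2, Ehhadh and Pex11a. None was higher. Cat fell furthest, to 0.53-fold of the wild-type level. In the deposited values Acaa1a and Hsd17b4 stayed within a narrow range in all 12 kidneys, which depended on the scaling. Crot varied more within groups than between them. Over all genes tested, 4.37% were called lower and 19.6% higher in this comparison. The promoters of the 4 genes called lower are printed first, because the description turns on these members.

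The sequences are the 250 bases before the RefSeq start on the coding strand, 5′ to 3′, from the GRCm38.p6 build, all on the minus strand of their chromosome. Capitals mark the half-site AGGTCA, the box named CCAAT and the GC box, whose letters are GGGCGG, on either strand, so a motif on the opposite strand shows as its reverse complement. Cat lies at chr2:103485154-103485403, Scp2 at chr4:108118548-108118797, Ehhadh at chr16:21787835-21788084 and Pex11a at chr7:79743132-79743381. The Scp2 window lies inside the annotated gene (chr4:108043830-108144971), so it precedes an internal start and not the outermost one. The same holds for the Acaa1a window, searched but not printed, which begins at chr9:119341044 inside its plus-strand gene (chr9:119341028-119350296).
Cat: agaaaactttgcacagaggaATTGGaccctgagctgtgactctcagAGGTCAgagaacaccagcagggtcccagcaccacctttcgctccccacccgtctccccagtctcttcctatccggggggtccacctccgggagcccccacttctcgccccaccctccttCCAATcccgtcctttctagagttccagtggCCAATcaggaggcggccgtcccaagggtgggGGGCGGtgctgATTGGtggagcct
Scp2: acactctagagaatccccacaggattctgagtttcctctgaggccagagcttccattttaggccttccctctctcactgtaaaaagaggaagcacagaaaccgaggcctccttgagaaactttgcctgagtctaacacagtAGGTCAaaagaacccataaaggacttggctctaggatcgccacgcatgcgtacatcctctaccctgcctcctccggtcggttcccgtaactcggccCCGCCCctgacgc
Ehhadh: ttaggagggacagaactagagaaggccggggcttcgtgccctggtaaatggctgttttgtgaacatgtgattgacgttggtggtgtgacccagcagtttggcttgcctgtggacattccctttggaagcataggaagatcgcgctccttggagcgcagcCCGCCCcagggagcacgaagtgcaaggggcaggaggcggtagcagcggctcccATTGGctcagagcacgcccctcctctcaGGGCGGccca
Pex11a: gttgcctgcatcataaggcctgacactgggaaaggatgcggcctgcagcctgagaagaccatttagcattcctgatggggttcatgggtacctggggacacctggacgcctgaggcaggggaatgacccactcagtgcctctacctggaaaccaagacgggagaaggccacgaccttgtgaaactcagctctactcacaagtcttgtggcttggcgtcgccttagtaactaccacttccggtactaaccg
The direct repeat of the PPAR and RXR pair, searched on both strands as 2 copies of AGGNCA with any 1 base between them, was in none of the 8 member promoters searched and in 0.338% of the 32851 promoters of the table. Its half-site AGGTCA, which overlaps that repeat where both occur, was in the Cat and Scp2 windows and in 14.0% of all promoters. CCAAT was in 5 of the 8 (Ehhadh, Acaa1a, Acaa1b, Cat and Crot) against 33.8% of all, and GGGCGG was in 5 of the 8 (Ehhadh, Acaa1a, Scp2, Cat and Crot) against 32.7%. TATAAA was in none of the 8 and in 12.4% of all. Pex11a held none of the 5 motifs, so its line has no capitals. Cat held CCAAT at 4 places, the nearest ending 9 bases before the start. The last bases of the Crot entry were not found in a sense transcript of GENCODE, and the cause was not tested. The entry begins at chr5:8997097, within the end of its minus-strand gene (chr5:8966033-8997146), where a minus-strand window is placed. Crot is included in the CCAAT and GGGCGG counts above. A match is a run of letters in this window, and no match says nothing of elements elsewhere.

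Sequencing depth was recovered from the steps of low values: 1 read per kilobase of transcript was worth 0.020 to 0.048 TPM, the abundance unit used throughout (a share of transcripts scaled to the same total in each library). The members were covered by 5285 to 62955 reads a library, except Pex11a with 112 to 344. The targeted gene did not check the labels, since Fan1 stood at 1.98 to 3.80 TPM in the wild-type kidneys and 1.17 to 3.51 TPM in the FAN1KO kidneys. Y-linked RNA was present in 4 of the 12 libraries, 1 in each group (FAN1KO cisplatin 3, FAN1KO saline 1, wild-type cisplatin 1 and wild-type saline 3). Mitochondrially encoded RNA took 10.2% to 16.7% of TPM in the FAN1KO cisplatin libraries and 18.3% to 22.7% in the other 9. The median log2 difference over all genes tested was 0.24 between the genotypes under cisplatin and 0.37 for cisplatin against saline in FAN1KO, so a member at 0 on this scale stood below the typical gene. With median-ratio scaling, which brings these medians to -0.027 and -0.034, the genes called under cisplatin split into 7.78% lower and 8.60% higher, against 4.37% lower and 19.6% higher on TPM.

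**Figure D1:**
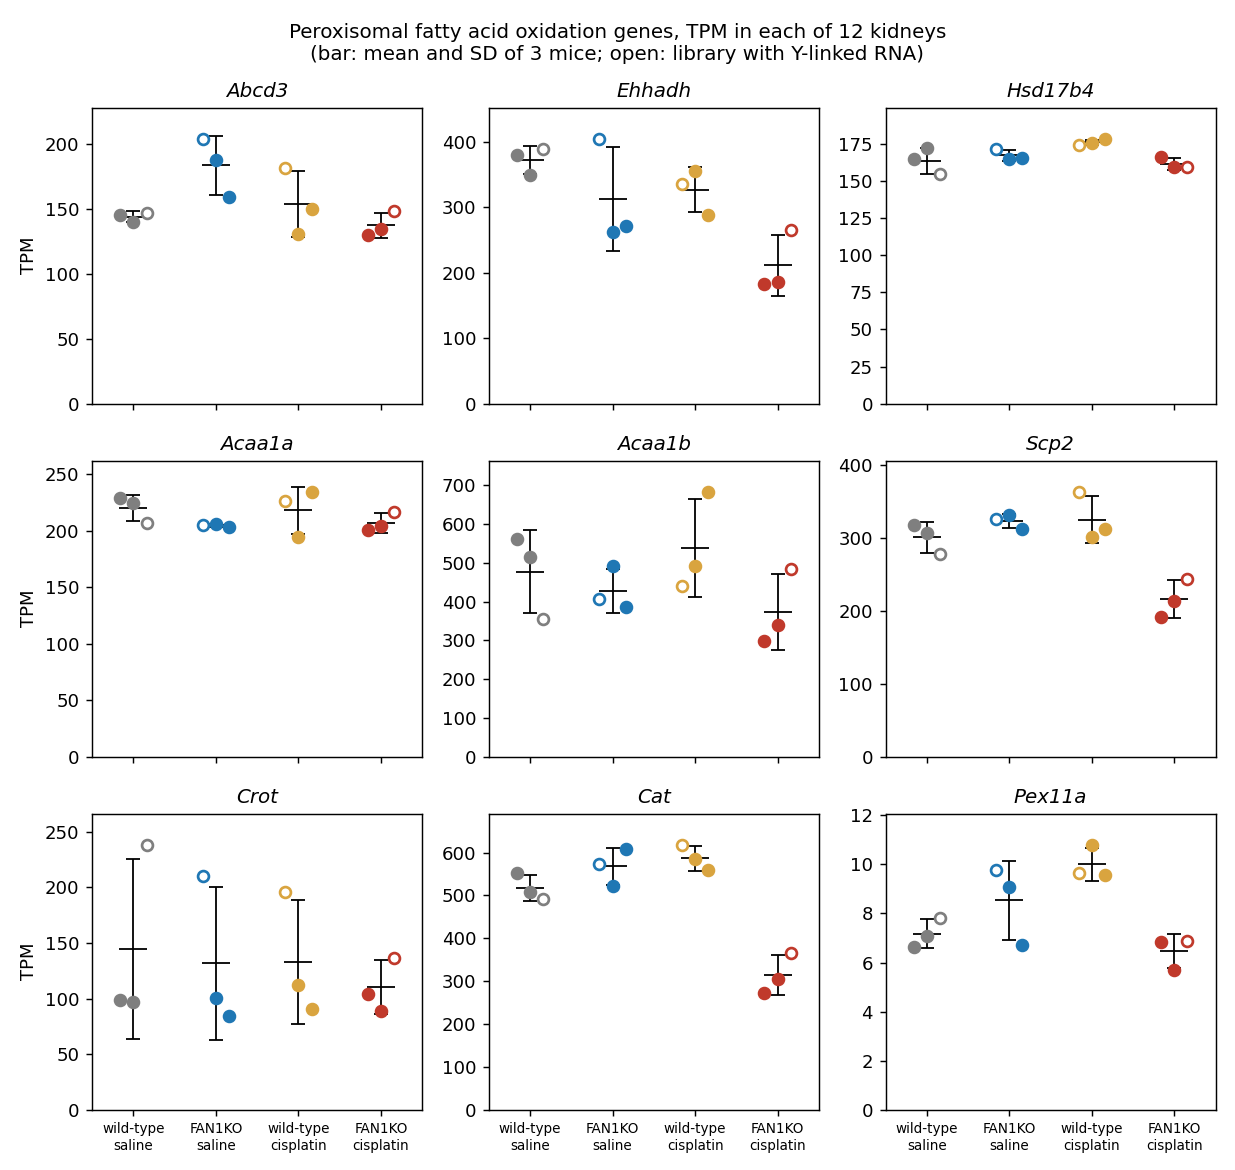
TPM (y axis, linear, from 0) of the 9 genes in each of 12 kidneys by group (x axis), with the mean and SD of 3 mice as bars and the libraries with Y-linked RNA as open points. The FAN1KO cisplatin points of Cat and Scp2 lie below those of all other groups, while Acaa1a and Hsd17b4 hardly move and Crot follows the open points.

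Levels are comparable between genes on TPM, which divides by transcript length. In wild-type saline kidneys the means were 517 ± 30.7 TPM for Cat (SD, n = 3, as for all means here), 477 ± 108 for Acaa1b, 372 ± 21.2 for Ehhadh and 301 ± 21.1 for Scp2. Lower came Acaa1a at 220 ± 11.7, Hsd17b4 at 164 ± 8.86, Crot at 144 ± 80.7, Abcd3 at 144 ± 3.94 and Pex11a at 7.18 ± 0.588. Cat and Acaa1b overlapped in their ranges, as did Acaa1b and Ehhadh, and Crot overlapped with Acaa1a, Hsd17b4 and Abcd3. Pex11a, which elongates and divides peroxisomes, was the least abundant in every library.

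The members were compared between FAN1KO and wild-type kidneys under cisplatin, the contrast in which both genotypes received the drug. By limma on log2(TPM + 1), with p adjusted over all 14972 genes, 4 of 9 members were lower and 0 higher, where 4.37% of all genes were called lower and 19.6% higher. A further member, Acaa1b, had an unadjusted p under 0.05, also lower. The share of all genes at that unadjusted cut was not computed for any comparison. All 9 estimates were below 0 and their median was -0.53, against 0.24 for all genes, or -0.82 against -0.027 with median-ratio scaling. The groups did not overlap for 5 members (Ehhadh, Hsd17b4, Scp2, Cat and Pex11a), where 44.3% of all genes did not overlap in either direction.

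Cat encodes catalase, which breaks down hydrogen peroxide made by the peroxisomal oxidases. It stood at 552, 508 and 493 TPM in wild-type saline, 574, 523 and 608 in FAN1KO saline, 617, 585 and 559 in wild-type cisplatin, and 273, 305 and 366 in FAN1KO cisplatin. Every FAN1KO cisplatin kidney was below every other kidney of the study. The genotypes under cisplatin differed by -0.91 ± 0.12 (SE) on the log2(TPM + 1) scale, with an adjusted p of 0.000977 by limma. The exact two-sided permutation test of 3 against 3 mice gave p = 0.1, the smallest this size allows. The call was kept in all 6 fits that each left out 1 cisplatin kidney, with adjusted p of 0.000842 to 0.00713.

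Scp2 encodes sterol carrier protein X, the thiolase for branched chains and bile acid intermediates, and from the same gene the lipid carrier SCP2. It stood at 318, 306 and 277 TPM in wild-type saline, 325, 332 and 312 in FAN1KO saline, 363, 301 and 312 in wild-type cisplatin, and 192, 214 and 244 in FAN1KO cisplatin. The FAN1KO cisplatin kidneys were again the lowest of the 12. The difference between genotypes under cisplatin was -0.59 ± 0.11 (adjusted p = 0.00533, limma), and it stayed called in all 6 fits with 1 kidney left out, with adjusted p of 0.00510 to 0.0286. Its ratio of 0.67 to wild-type was nearer to 1 than that of Cat.

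Ehhadh encodes the L-bifunctional enzyme, which carries out the hydratase and dehydrogenase steps and serves dicarboxylic chains in particular. It stood at 380, 348 and 389 TPM in wild-type saline, 404, 262 and 270 in FAN1KO saline, 335, 356 and 289 in wild-type cisplatin, and 183, 186 and 265 in FAN1KO cisplatin. The cisplatin groups did not overlap, but 1 FAN1KO cisplatin kidney was above 1 FAN1KO saline kidney. The difference under cisplatin was -0.64 ± 0.19 (adjusted p = 0.0321, limma). It was not called with median-ratio scaling (adjusted p = 0.0588), nor without wild-type cisplatin 1 (adjusted p = 0.0894), wild-type cisplatin 2 (0.0837), FAN1KO cisplatin 1 (0.132) or FAN1KO cisplatin 2 (0.114).

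Pex11a stood at 6.65, 7.08 and 7.81 TPM in wild-type saline, 9.78, 9.10 and 6.73 in FAN1KO saline, 9.65, 10.8 and 9.58 in wild-type cisplatin, and 6.85, 5.68 and 6.88 in FAN1KO cisplatin. The FAN1KO cisplatin kidneys were below the wild-type cisplatin ones and overlapped with both saline groups. The difference under cisplatin was -0.56 ± 0.15 (adjusted p = 0.0231, limma). Without wild-type cisplatin 1 (adjusted p = 0.0556), wild-type cisplatin 2 (0.0662), FAN1KO cisplatin 1 (0.0592) or FAN1KO cisplatin 2 (0.0940) it was not called.

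**Figure D2:**
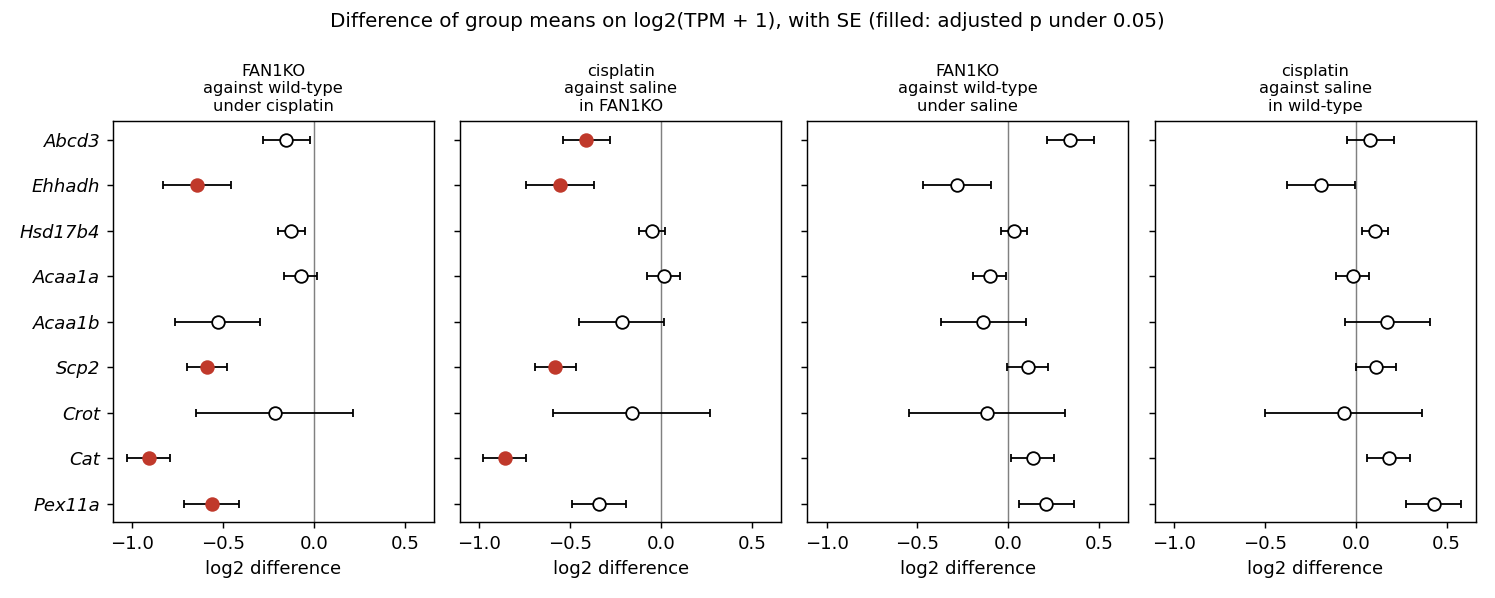
Differences of group means on log2(TPM + 1) with SE (x axis) for the 9 genes (y axis) in 4 comparisons, filled where the adjusted p was under 0.05. Cat, Scp2, Ehhadh and Pex11a are filled between the genotypes under cisplatin, Cat, Scp2, Ehhadh and Abcd3 for cisplatin in FAN1KO, and no gene in the other 2 panels.

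Hsd17b4 encodes the D-bifunctional protein, which acts on very long and branched chains beside Ehhadh. It stood at 164, 172 and 154 in wild-type saline, 171, 165 and 165 in FAN1KO saline, 174, 175 and 178 in wild-type cisplatin, and 166, 159 and 159 in FAN1KO cisplatin. The cisplatin groups did not overlap, the FAN1KO mean differed from the wild-type mean by -8.22%, and the difference of -0.12 ± 0.073 was not called (adjusted p = 0.240, limma), with a 95% interval of -0.28 to 0.038. Unlike the other bifunctional enzyme, it kept a coefficient of variation of TPM of at most 5.41% within each group. With Y-linked RNA as covariate on median-ratio scaled values, it was called lower under cisplatin (-0.44, adjusted p = 0.00151, limma). Acaa1a was too (-0.39, adjusted p = 0.00904), where 19.5% of all genes were.

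Acaa1a and Acaa1b encode the straight-chain thiolases, which cleave acetyl-CoA from the shortened chain. Acaa1a stood at 229, 225 and 207 TPM in wild-type saline, 205, 206 and 203 in FAN1KO saline, 226, 194 and 234 in wild-type cisplatin, and 200, 204 and 217 in FAN1KO cisplatin. All 12 kidneys lay between 194 and 234 TPM, and the difference under cisplatin was -0.072 ± 0.090 (adjusted p = 0.594, limma) with an interval of -0.27 to 0.13. Acaa1b stood at 561, 515 and 356, then 406, 491 and 385, then 441, 491 and 681, then 298, 339 and 485 in the same order of groups, and the cisplatin groups overlapped. Its difference was -0.53 ± 0.23 (adjusted p = 0.123, limma), with an interval of -1.04 to -0.012, and it was called with median-ratio scaling (-0.83, adjusted p = 0.0425) and in the libraries without Y-linked RNA (-0.86, adjusted p = 0.0112). The coding sequences of the pair, 1275 bases each, were 96.5% identical, with 25.6% of positions in identical runs at least as long as a read of 150 bases, so how reads were shared between them is uncertain. Summed to 1 row, the pair differed by -0.38 ± 0.18 (adjusted p = 0.149, limma). Exons of Acaa1a and Acaa1b also overlap Myd88 and Dlec1 on the opposite strand in GENCODE, and the deposited values do not state whether strand was used.

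Abcd3 encodes the transporter PMP70, which brings acyl-CoA into the peroxisome. It stood at 145, 140 and 147 in wild-type saline, 204, 188 and 159 in FAN1KO saline, 181, 131 and 150 in wild-type cisplatin, and 130, 134 and 148 in FAN1KO cisplatin. The FAN1KO saline kidneys were above both FAN1KO cisplatin and wild-type saline kidneys. Between the genotypes under cisplatin it differed by -0.15 ± 0.13 (adjusted p = 0.416, limma).

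Crot encodes carnitine octanoyltransferase, which passes medium chains out of the peroxisome. It stood at 98.5, 97.2 and 238 TPM in wild-type saline, 210, 100 and 84.4 in FAN1KO saline, 196, 112 and 90.2 in wild-type cisplatin, and 105, 88.9 and 137 in FAN1KO cisplatin. The highest kidney of each group was the 1 whose library held Y-linked RNA. Outside FAN1KO cisplatin, the 3 such libraries had 196 to 238 TPM and the other 6 had 84.4 to 112, a ratio of means of 2.21. Crot was the only member of the 9 whose values split this way without overlap, a split seen in 40.1% of all genes. FAN1KO cisplatin 3, which also held Y-linked RNA, had 137 TPM and lay below the other 3 such libraries. Over all kidneys the genotypes under cisplatin differed by -0.21 ± 0.43 (adjusted p = 0.744, limma), with an interval of -1.17 to 0.74. Exons of Crot overlap Gm27941 on the same strand and Gm37153 on the opposite strand.

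Cisplatin was then compared with saline in FAN1KO kidneys, which share the FAN1KO cisplatin libraries with the comparison above. Here 4 of 9 members were lower and 0 higher by limma, where 4.90% of all genes were lower and 34.9% higher. An unadjusted p under 0.05 was found for 5 members, all lower, without a matching share of all genes. The median difference of the members was -0.34, against 0.37 for all genes, or -0.75 against -0.034 with median-ratio scaling. Cat differed by -0.86 ± 0.12 (adjusted p = 0.000578), Scp2 by -0.58 ± 0.11 (adjusted p = 0.00288), Ehhadh by -0.55 ± 0.19 (adjusted p = 0.0373) and Abcd3 by -0.41 ± 0.13 (adjusted p = 0.0282). Cat, Scp2 and Abcd3 did not overlap between these groups, where 54.9% of all genes did not, while Ehhadh overlapped. Cat and Scp2 stayed called without any 1 of the 6 kidneys. Ehhadh was not called without FAN1KO saline 1, its highest kidney (adjusted p = 0.138), nor without FAN1KO cisplatin 1 (0.139) or FAN1KO cisplatin 2 (0.125). Abcd3 was not called without FAN1KO saline 1 (0.105), FAN1KO saline 2 (0.0684), FAN1KO cisplatin 1 (0.1003) or FAN1KO cisplatin 2 (0.0809). Pex11a, at -0.34 ± 0.15, was not called (adjusted p = 0.0923), but was with median-ratio scaling (-0.75, adjusted p = 0.0245), with Y-linked RNA as covariate (-0.35, adjusted p = 0.0344) and with mitochondrially encoded genes removed (-0.47, adjusted p = 0.0371). Hsd17b4 was also called with median-ratio scaling (-0.51, adjusted p = 0.0310), where 6 of 9 members were lower against 14.1% of all genes.

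No member was called by limma between the saline kidneys of the 2 genotypes or between wild-type kidneys with and without cisplatin. Between the saline groups, 0 of 9 members were called, where 0.427% of all genes were lower and 0.341% higher, and 1 member had an unadjusted p under 0.05. That member was Abcd3, at 0.34 ± 0.13 (adjusted p = 0.454), with groups that did not overlap and an interval of 0.054 to 0.63. Acaa1a also did not overlap there, with 203 to 206 TPM in FAN1KO and 207 to 229 TPM in wild-type, and 12.5% of all genes did not overlap. Between wild-type cisplatin and wild-type saline, 0 of 9 were called, where 0% of all genes were lower and 0.0601% higher, and again 1 had an unadjusted p under 0.05. That member was Pex11a, at 0.43 ± 0.15 (adjusted p = 1), with 9.58 to 10.8 TPM after cisplatin and 6.65 to 7.81 TPM after saline and an interval of 0.10 to 0.76. Cat and Hsd17b4 also did not overlap there, both higher after cisplatin by 13.4% and 7.53% of the mean, and 6.28% of all genes did not overlap.

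The effect of cisplatin differed between the genotypes for 2 of 9 members, Cat and Scp2, in the test of the interaction itself, where 1.02% of all genes were called lower in FAN1KO and 5.22% higher. The log2 difference of Cat between cisplatin and saline was 0.18 in wild-type and -0.86 in FAN1KO kidneys, and these differed by -1.04 ± 0.17 (adjusted p = 0.0124, limma). For Scp2 they were 0.11 and -0.58, which differed by -0.69 ± 0.16 (adjusted p = 0.0330, limma). For Pex11a they were 0.43 and -0.34, neither called, and their difference of -0.77 ± 0.21 missed the threshold (adjusted p = 0.0571, limma). The interaction of Cat was called without any 1 of the 12 kidneys, whereas that of Scp2 was called in 2 of these 12 fits and lost in the other 10, with adjusted p of 0.0224 to 0.0916 over all 12.

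The members were also set against each other within each kidney, as the ratio of TPM to that of Hsd17b4, a choice made after its level was seen to vary little. This ratio does not depend on how a library was scaled. Cat over Hsd17b4 was 1.64 to 2.30 in FAN1KO cisplatin and 3.14 to 3.53 in wild-type cisplatin, Scp2 over Hsd17b4 was 1.16 to 1.53 and 1.72 to 2.08, and Pex11a over Hsd17b4 was 0.0356 to 0.0432 and 0.0538 to 0.0614. None of these pairs of ranges overlapped, and the exact two-sided permutation test gave p = 0.1 for each, the smallest for 3 against 3. On TPM, 44.3% of all genes did not overlap between these groups, and the share for ratios to Hsd17b4 was not computed. Ehhadh over Hsd17b4 overlapped, at 1.10 to 1.66 against 1.62 to 2.03 (exact permutation p = 0.2). Abcd3 over Hsd17b4 was 0.780 to 0.930 against 0.744 to 1.04, and overlapped. The ratios of Acaa1a, Acaa1b and Crot to Hsd17b4 also overlapped between these groups.

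**Figure D3:**
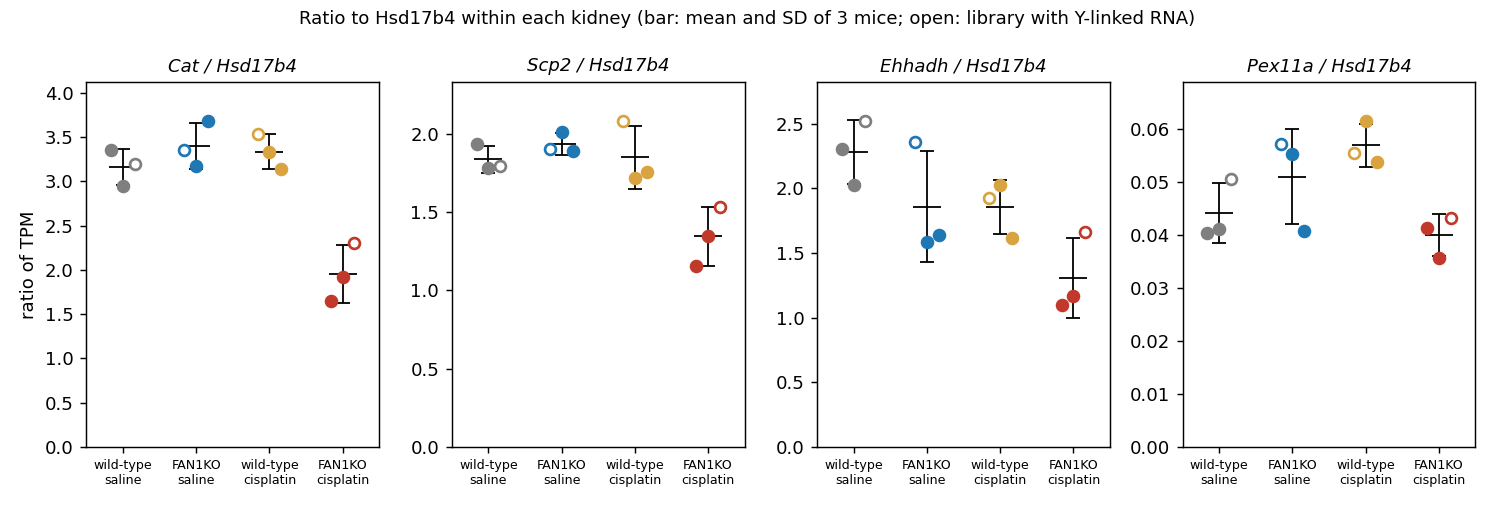
Ratio of the TPM of Cat, Scp2, Ehhadh and Pex11a to that of Hsd17b4 in the same kidney (y axis, linear, from 0) by group (x axis), with mean and SD of 3 mice as bars and open points for libraries with Y-linked RNA. The FAN1KO cisplatin ratios of Cat (1.64 to 2.30) and Scp2 (1.16 to 1.53) lie below all others, while those of Ehhadh overlap with FAN1KO saline and wild-type cisplatin but not with wild-type saline.

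Since each group held 1 library with Y-linked RNA, the genotypes under cisplatin can be read within both kinds. Cat differed by -0.98 between the 4 libraries without Y-linked RNA and by -0.75 between the 2 with it, Scp2 by -0.59 and -0.57, and Pex11a by -0.62 and -0.44. For Ehhadh the values were -0.80 and -0.34, and for Acaa1b -0.86 and 0.14. The pairs with Y-linked RNA are 1 kidney against 1 and have no test.

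Of the cell type markers, most of the proximal tubule list and all of the injured tubule list also differed between the genotypes under cisplatin. Summed TPM of the 9 members was 2356 to 2543 in wild-type cisplatin and 1553 to 2026 in FAN1KO cisplatin. Over 8 proximal tubule markers the summed TPM was 3758 to 5524 and 1526 to 2985 in these groups. Of the 8, 5 (Lrp2, Cubn, Slc34a1, Slc22a6 and Aqp1) were lower by limma, and Slc5a2, Slc5a12 and Slc7a13 were not called. Slc34a1 alone had means of 2446 and 1127 TPM, within mean sums of 4449 and 2075. Over 4 markers of injured tubule the summed TPM was 32.8 to 148 and 778 to 1155, with all 4 higher. The 7 immune markers summed to 39.5 to 170 and 152 to 388, with 1 higher (Cd68). Collecting duct markers were higher for 1 of 3 (Aqp2) and distal convoluted tubule markers lower for 1 of 2 (Pvalb), and none of the thick ascending limb (2), podocyte (2), endothelium (3), fibroblast (3) or adipocyte (3 tested) markers was called. In bulk RNA, fewer cells of a type and less RNA per cell cannot be told apart, and the part of the cell make-up in the lower Cat, Scp2, Ehhadh and Pex11a was not tested.

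**Figure D4:**
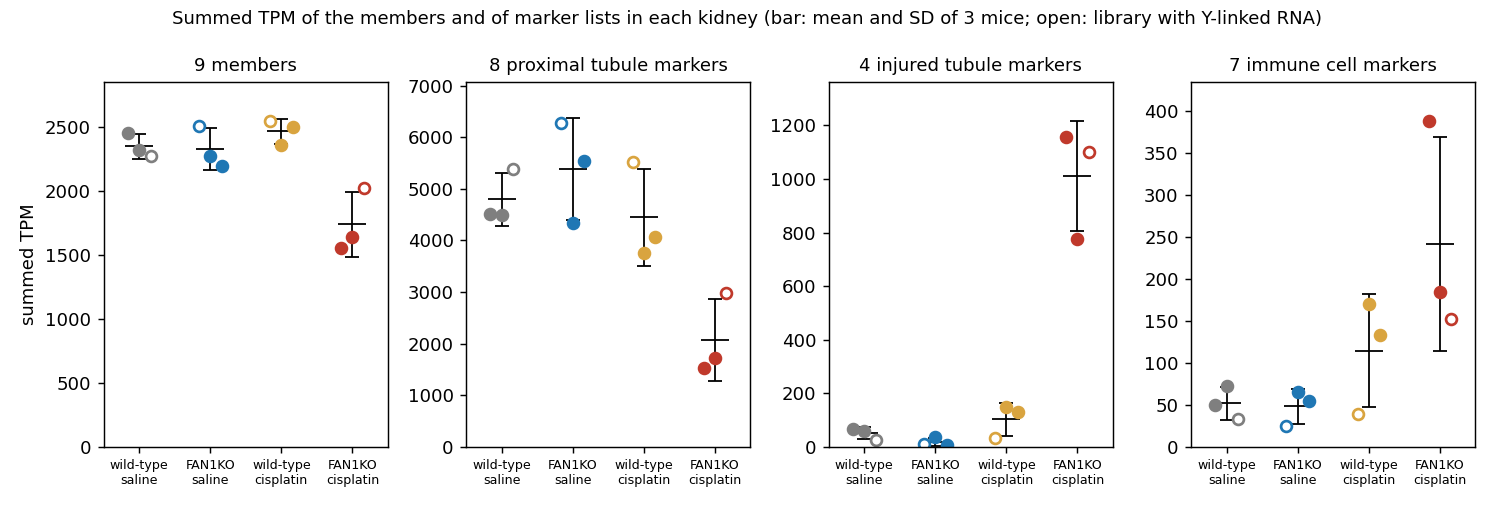
Summed TPM (y axis, linear, from 0) of the 9 members and of the proximal tubule, injured tubule and immune marker lists in each kidney by group (x axis), with mean and SD of 3 mice as bars and open points for libraries with Y-linked RNA. In FAN1KO cisplatin the member sum (1553 to 2026) and the proximal tubule sum (1526 to 2985) are the lowest, and the injured tubule sum (778 to 1155) is the highest.

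The wider peroxisome was examined through 54 other genes in 8 roles, 51 of which passed the filter and were tested. Between the genotypes under cisplatin 4 were lower and 1 higher, against 4.37% and 19.6% of all genes, and their median difference was -0.22. For cisplatin in FAN1KO 5 were lower and 3 higher, against 4.90% and 34.9% of all genes, with a median of -0.17. These counts changed with the scaling and with Y-linked RNA as covariate. Under cisplatin 9 were lower and 0 higher with median-ratio scaling, where 7.78% and 8.60% of all genes were, and 20 were lower and 3 higher with the covariate, where 8.60% and 40.3% were. For cisplatin in FAN1KO 21 were lower and 1 higher with the scaling, where 14.1% and 14.2% of all genes were, and 20 were lower and 4 higher with the covariate, where 8.16% and 52.9% were. Without these changes, no gene of the 51 was called between the saline groups, where 2 had an unadjusted p under 0.05, or in wild-type kidneys, where none had. Between the saline groups 0 were lower and 1 higher with the covariate, where 1.66% and 1.16% of all genes were. In the 8 libraries without Y-linked RNA, 1 was lower and 0 higher there, where 1.23% and 0.777% of all genes were. In FAN1KO the genes called lower after cisplatin were Slc27a2, Crat, Acot4, Ddo and Far1, and those called higher were Eci2, Paox and Pex16.

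The roles follow for the genotypes under cisplatin, where 4.37% of all genes were lower and 19.6% higher. Of the acyl entry genes, 1 of 4 tested was lower. This was Slc27a2, a very long chain acyl-CoA synthetase, at -0.75 ± 0.24 (adjusted p = 0.0450, limma), with 1037 to 1682 TPM in FAN1KO cisplatin and 1669 to 2476 TPM in wild-type cisplatin. Slc25a17, a carrier of cofactors across the peroxisome membrane, and Acbd5, a tether to the endoplasmic reticulum, had differences of -0.24 and -0.051, not called.

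None of the 7 other beta-oxidation genes was called. Pecr, an enoyl-CoA reductase, differed by -1.32 ± 0.52 (adjusted p = 0.0894), Amacr, the racemase of branched chains, by -1.03 ± 0.67 (adjusted p = 0.282) and Eci2, an enoyl-CoA isomerase, by 0.26 ± 0.15 (adjusted p = 0.239). Outside FAN1KO cisplatin, Amacr had 213 to 318 TPM in the 3 libraries with Y-linked RNA and 62.1 to 75.1 in the 6 without. Across the 54 genes 12 were higher and 7 lower in those 3 libraries without overlap, where 40.1% of all genes did not overlap. In alpha-oxidation, which removes 1 carbon from branched chains, Phyh differed by -1.07 ± 0.39 (adjusted p = 0.0673) and Hacl1 by 0.24 ± 0.92 (adjusted p = 0.872). Phyh had 122 to 126 TPM in all 3 FAN1KO cisplatin kidneys, 199 and 203 in the wild-type cisplatin kidneys without Y-linked RNA, and 452 in the other.

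Of the 6 tested genes of exit and CoA handling, 1 was lower and 1 higher. Crat, carnitine acetyltransferase, was lower by -0.48 ± 0.12 (adjusted p = 0.0178) and Nudt7, a CoA diphosphatase, higher by 0.65 ± 0.21 (adjusted p = 0.0439). The call of Nudt7 was lost with median-ratio scaling and with replicate number as a block. Between the saline groups Nudt7 differed by 0.64 ± 0.21 (adjusted p = 0.320) and for cisplatin in FAN1KO by 0.018 ± 0.21 (adjusted p = 0.954), and neither was called. Acot4, a thioesterase, differed by -0.58 ± 0.22 (adjusted p = 0.0765). Of 8 tested oxidases and scavengers 1 was lower: Ddo, D-aspartate oxidase, stood at 11.9, 11.4 and 16.8 TPM in FAN1KO cisplatin and 22.4, 28.3 and 26.0 in wild-type cisplatin, a difference of -0.90 ± 0.17 (adjusted p = 0.00488). Its response to cisplatin also differed between the genotypes, by -1.07 ± 0.24 (adjusted p = 0.0298), a call lost with replicate number as a block. Hao2, a hydroxy acid oxidase, differed by -1.98 ± 0.76 (adjusted p = 0.0819) and Gstk1, a glutathione transferase, by -0.56 ± 0.21 (adjusted p = 0.0757). Uox, urate oxidase, was listed at 0 in 9 libraries and at 0.597, 0.580 and 0.392 TPM in the 3 FAN1KO cisplatin libraries, under the level needed for the test.

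Among 3 ether lipid genes none was called: Far1 differed by -0.48 ± 0.22 (adjusted p = 0.132), Agps by -0.87 ± 0.73 and Gnpat by -0.16 ± 0.15. Of 18 biogenesis genes 1 was lower, Tysnd1, a processing protease, by -0.32 ± 0.10 (adjusted p = 0.0439). Pex10, a ubiquitin ligase of the import machinery, differed by -0.25 ± 0.10 (adjusted p = 0.104) and Pex6, an ATPase of import receptor recycling, by -0.34 ± 0.12 (adjusted p = 0.0596). The median of the 18 was -0.11. None of 3 regulators was called: Rxra differed by -0.29 ± 0.10 (adjusted p = 0.0705), Ppara by -0.14 ± 0.22 (adjusted p = 0.675) and Ppargc1a by 0.14 ± 0.28 (adjusted p = 0.742).

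**Figure D5:**
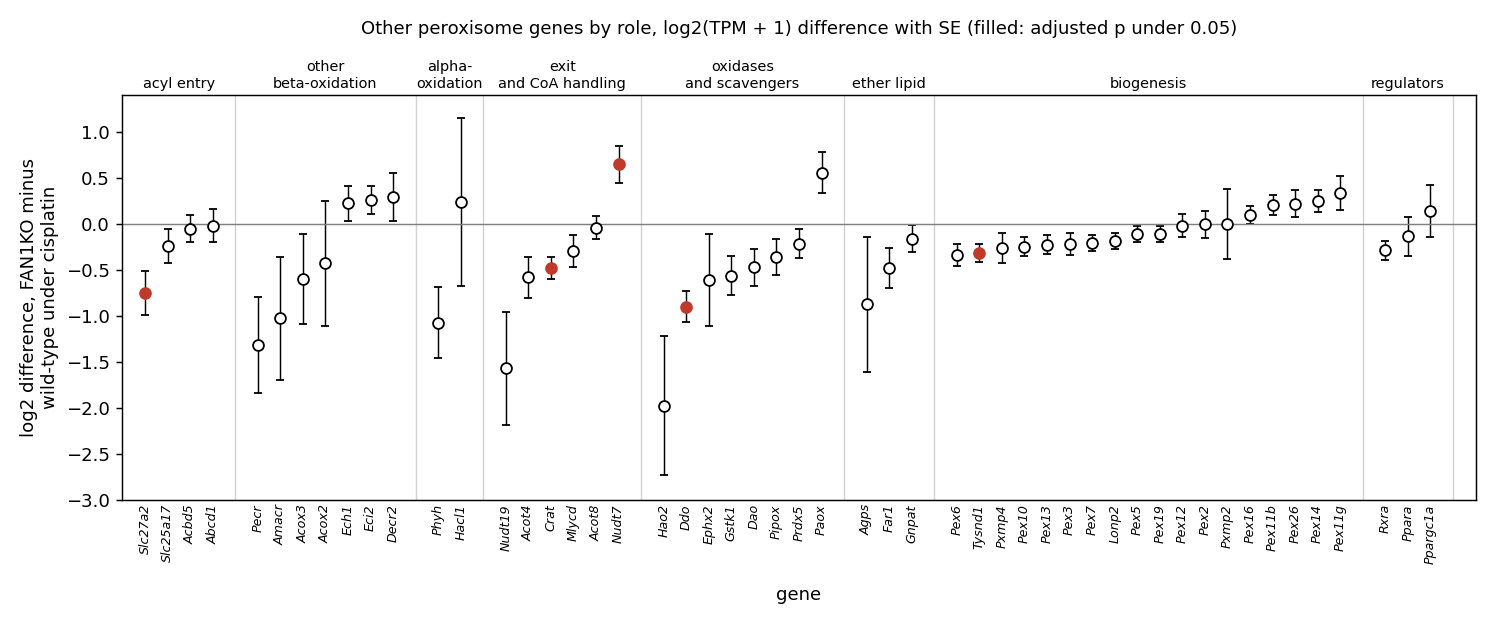
Difference between FAN1KO and wild-type under cisplatin on log2(TPM + 1) with SE (y axis) for 51 other peroxisome genes (x axis), grouped by role and filled where the adjusted p was under 0.05. Slc27a2, Crat, Ddo and Tysnd1 are filled below 0 and Nudt7 above, and genes with wide bars such as Pecr, Nudt19 and Hao2 are open.

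The genes whose pattern over the 12 kidneys was most like that of each member were found by the root mean square (RMS) difference of centred log2(TPM + 1), over 9232 genes. Cat was nearest to Gpd1 (0.116), Pcca (0.116) and Sucla2 (0.119), where Cat itself varied about its mean by 0.381. Scp2 was nearest to Iyd (0.0896), Pyroxd2 (0.0903) and Idh3g (0.0966), and Ehhadh to Aldh5a1 (0.146), Msra (0.149) and Acp5 (0.157). Pex11a was nearest to Bcl7a (0.117), Nr1h3 (0.129) and Abcb6 (0.142), Abcd3 to Sel1l3 (0.0991), Cdc37l1 (0.104) and Tmem126b (0.110), Acaa1b to Mttp (0.121), Slc5a11 (0.135) and Stat5b (0.190), and Crot to Ifrd2 (0.173), Vps8 (0.173) and Aldh3a2 (0.177). Hsd17b4 was nearest to Lonp1 (0.0530), Ccpg1 (0.0551) and Ebag9 (0.0553) and Acaa1a to Ebag9 (0.0688), Pex19 (0.0693) and Trpv4 (0.0702), distances close to their own variation of 0.0603 and 0.0831.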

How the data were processed

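RNA from whole kidneys of 12 mice was sequenced as paired reads of 150 bases. The authors deposited TPM (a length-corrected share of transcripts) for 27179 genes by NCBI Gene number, with each library summing to 1000000. The submitters' processing notes name mm10 and limma, and the aligner, counter, annotation and strand setting are not given in the sources used here. Gene names came from a RefSeq table, and 1904 Gene numbers had no name. Values were tested as log2(TPM + 1), so folds of low genes are understated, for the 14972 genes that reached TPM 1 in 3 or more libraries, by limma 3.58.1 in R 4.3.3 with 4 group means, a mean-variance trend and Benjamini-Hochberg adjustment over all of them at 0.05. An exact permutation test of 3 against 3 mice was a second test. Nothing in the labels ties replicate numbers to shared litters or days. The fit was tested on simulated data.

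Alternatives were a pseudocount of 0.1, other filters, median-ratio scaling, no trend, only the libraries compared, a replicate block, Y-linked RNA as covariate or only the 8 libraries without it, mitochondrially encoded genes removed, Acaa1a and Acaa1b summed, and each library left out. The covariate on median-ratio scaled values was added after seeing the data. The members and lists (wider peroxisome roles and cell type markers) were chosen with earlier results of these data known, and 2 genes of the wider lists are not reported here. All members are named, and of each wider role the 3 genes with the lowest adjusted p between the genotypes under cisplatin; Uox, Paox, Pex16 and Nudt19 were named after their values were seen. Like genes had a mean log2(TPM + 1) of at least 3. Promoters came from RefSeq (GRCm38.p6), and Hsd17b4 was not searched.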

Additional observations from a re-analysis of the deposited data

Results flagged for a closer look

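The response to cisplatin differed between the genotypes, in a test of the interaction by limma, for Cat (-1.04, adjusted p = 0.0124), Scp2 (-0.69, adjusted p = 0.0330) and, among the other peroxisome genes, Ddo (-1.07, adjusted p = 0.0298). All 3 values are FAN1KO minus wild-type on log2(TPM + 1). With the replicate block, Scp2 and Ddo were not called in the interaction. The groups of 3 were too small for a test of single outlying libraries.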

How the results depend on the processing

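Members called lower numbered 4 between the genotypes under cisplatin, 4 for cisplatin in FAN1KO and 2 in the interaction. With Y-linked RNA as covariate on median-ratio scaled values, an alternative added after seeing the data, they numbered 9, 9 and 6, where 19.5%, 26.3% and 10.8% of all genes were called lower. With 1 library left out they ranged from 2 to 5, from 2 to 5 and from 1 to 2. The interaction count was 1 with median-ratio scaling, 1 with the replicate block and 4 with the covariate alone, where 1.05%, 0.488% and 4.31% of all genes were. In the 8 libraries without Y-linked RNA the counts were 5, 4 and 2, where 7.87%, 8.54% and 2.94% of all genes were. No member was called higher in any comparison under any alternative. Ehhadh was not called between the genotypes under cisplatin with median-ratio scaling (-0.95, adjusted p = 0.0588), with only the libraries compared (-0.64, adjusted p = 0.0531) or with the block, nor for cisplatin in FAN1KO without the filter (adjusted p = 0.0515) or with only the libraries compared (adjusted p = 0.0852). The cause of these changes was not tested.

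The mean correlation of deviations from group means was 0.018 for the 18 same-numbered pairs (-0.61 to 0.76) and 0.015 for the other 36 (-0.70 to 0.78). Of 12 libraries, 4 correlated best with their own number. The libraries with Y-linked RNA were number 1 in some groups and 3 in others. Deviations from group means still hold that difference, so this check could not decide whether replicate numbers pair the kidneys. The replicate block gave 3, 3 and 1 members called lower, where 3.87%, 4.49% and 0.488% of all genes were. It lost Ehhadh in the first 2 (adjusted p = 0.0512 and 0.0553) and Scp2 in the interaction (adjusted p = 0.0679), and changed no other member's call. Of the 51 other peroxisome genes tested, the block gave 3 lower and 0 higher under cisplatin, where 3.87% and 15.9% of all genes were. For cisplatin in FAN1KO it gave 4 lower and 2 higher, where 4.49% and 32% of all genes were. In the interaction it gave 0 lower and 0 higher, where 0.488% and 2.34% of all genes were, so Ddo lost its call.

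Of 840 values of single members under the alternatives, 743 kept their direction and side of the threshold, 33 lost the call, 25 gained it and 39 changed sign, none of them called as reported; of these 39, Acaa1a for cisplatin in FAN1KO was called at -0.46 (adjusted p = 0.00249) with the covariate on scaled values. With median-ratio scaling the values that changed sign were -0.45 for Acaa1a for cisplatin in FAN1KO, -0.33 for Acaa1a in the interaction and -0.022 for Abcd3 for cisplatin in wild-type. With the covariate added they were -0.46 and -0.33 for Acaa1a in the same comparisons, and -0.0061 for Hsd17b4, -0.0045 for Scp2 and -0.037 for Abcd3 for cisplatin in wild-type. With mitochondrially encoded genes removed they were -0.12 and -0.073 for Acaa1a. Without Y-linked libraries they were -0.027 for Hsd17b4 between saline groups, -0.017 for Acaa1a and 0.067 for Crot for cisplatin in FAN1KO, -0.027 for Scp2, -0.028 for Abcd3 and 0.042 for Crot for cisplatin in wild-type, and 0.025 for Crot in the interaction. With 1 library left out, Crot ranged from -0.45 to 0.10 between the genotypes under cisplatin, -0.51 to 0.31 under saline, -0.42 to 0.23 for cisplatin in FAN1KO, -0.38 to 0.36 in wild-type and -0.52 to 0.30 in the interaction. Acaa1a ranged from -0.019 to 0.037, -0.070 to 0.064 and -0.050 to 0.084 in the last 3 of these, Acaa1b from -0.025 to 0.30 and Abcd3 from -0.043 to 0.19 for cisplatin in wild-type, and Hsd17b4 from -0.0096 to 0.068 between saline groups.

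With 3 mice a group, the permutation test could not go below p = 0.1, and TPM values of Pex11a rested on 112 to 344 reads.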
